A study of Mus musculus with 15 samples.

Results

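The proteasome subunit genes were followed through RNA-seq of the mouse cerebellum as the genes whose symbols begin with Psma, Psmb, Psmc, Psmd, Psme, Psmf or Psmg and end in a number, without the interferon-induced Psmb8 and Psmb9, and with a mean level of at least 1 CPM (read counts relative to library total) over all 15 libraries. Of 24420 gene symbols, 46 matched and 44 passed the limit. The excluded matches were Psma8 and Psmb11. All 44 entered the test, among 16808 genes. The rule used symbols and mean level only.

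The libraries came from 3 groups of 5. In 82Q_M120A the mice carried Atxn1[82Q] together with CalphaLoxM120A, an altered allele of the catalytic subunit of protein kinase A that Prkaca encodes. Their strain was a C57BL/6J and FVB/nJ mix and their age 8 weeks. In 82Q the mice carried Atxn1[82Q] alone, on FVB/nJ at 9 weeks. WT mice were FVB/nJ at 9 weeks. Expanded Atxn1 causes spinocerebellar ataxia type 1, a disease of Purkinje cells, and the study asks what reduced phosphorylation of ATXN1 by the kinase does in these cells. The design text calls Atxn1[82Q] a knockin, and the promoter and the cells that express either allele remain not given in the sources used here. No group carried the kinase allele alone, so in each comparison with 82Q_M120A the allele, strain and age cannot be told apart. The labels do not say whether the 5 libraries of a group came from separate animals, and p-values refer to the spread among these libraries, which may be technical.

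The proteasome degrades proteins that carry ubiquitin chains, among them misfolded proteins in neurons. Its 20S core is a barrel of alpha and beta rings, in which the beta subunits encoded by Psmb5, Psmb6 and Psmb7 cut proteins. The 19S cap on the ends of the barrel binds ubiquitin chains through its non-ATPase subunits (Psmd genes) and unfolds and feeds in the substrate through its ring of ATPases (Psmc genes). Separate chaperones assemble the core (Psmg genes) and the base of the cap (Psmd5, Psmd9 and Psmd10), and activators (Psme genes) can open the core in place of the cap. The transcription factor that Nfe2l1 encodes raises proteasome genes as a group when proteasome activity is low.

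Promoter sequences are shown for 4 genes whose counts changed and for Psmb5, the most variable member, with the motifs that a search found. They are the 250 bases before the RefSeq start (GRCm38.p6), written 5′ to 3′ along the gene, and capitals mark a match to the antioxidant response element core TGACNNNGC, through which the Nfe2l1 product binds, to the CCAAT box, or to the ETS core CCGGAAG, each searched on both strands.
Psmd8, chr7:29180674-29180923, minus strand: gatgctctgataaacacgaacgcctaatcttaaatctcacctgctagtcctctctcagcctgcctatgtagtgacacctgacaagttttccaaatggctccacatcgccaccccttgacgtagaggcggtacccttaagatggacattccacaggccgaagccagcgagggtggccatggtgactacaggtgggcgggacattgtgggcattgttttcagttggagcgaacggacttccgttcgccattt
Psmb6, chr11:70525107-70525356, plus strand: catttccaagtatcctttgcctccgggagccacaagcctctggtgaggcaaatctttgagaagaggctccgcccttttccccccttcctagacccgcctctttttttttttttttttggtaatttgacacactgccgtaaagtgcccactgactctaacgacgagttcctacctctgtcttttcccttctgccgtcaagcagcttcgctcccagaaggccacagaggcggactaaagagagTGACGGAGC
Psmc1, chr12:100109952-100110201, plus strand: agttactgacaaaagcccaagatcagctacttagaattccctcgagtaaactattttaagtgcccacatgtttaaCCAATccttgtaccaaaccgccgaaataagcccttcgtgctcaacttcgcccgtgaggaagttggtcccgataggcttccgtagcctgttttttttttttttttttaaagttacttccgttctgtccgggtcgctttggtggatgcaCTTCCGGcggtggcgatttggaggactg
Psmd9, chr5:123227940-123228189, plus strand: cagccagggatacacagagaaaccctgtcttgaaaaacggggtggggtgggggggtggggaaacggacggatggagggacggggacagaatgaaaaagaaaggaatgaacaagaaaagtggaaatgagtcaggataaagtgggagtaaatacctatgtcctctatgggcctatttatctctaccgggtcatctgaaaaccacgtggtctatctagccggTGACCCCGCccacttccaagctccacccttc
Psmb5, chr14:54617996-54618245, minus strand: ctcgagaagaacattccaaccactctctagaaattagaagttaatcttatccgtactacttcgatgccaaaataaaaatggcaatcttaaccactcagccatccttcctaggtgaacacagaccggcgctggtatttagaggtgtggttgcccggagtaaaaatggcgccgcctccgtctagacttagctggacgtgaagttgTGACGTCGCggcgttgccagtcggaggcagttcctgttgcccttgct
The Psmd8 window held none of these letters. TGACNNNGC stood 9 to 1 bases before the start in Psmb6, 31 to 23 in Psmd9 and 47 to 39 in Psmb5, and in Psmc1 a CCAAT stood 175 to 171 bases and an ETS core 28 to 22 bases before it. Promoters were matched for 37 members, and Psmb1, Psmb2, Psmb7, Psmc3, Psmd3, Psmd7 and Psmg2 were not matched. TGACNNNGC was found in 5 of the 37 (Psmb5, Psmb6, Psmc6, Psmd12 and Psmd9), or 13.5%, beside 10.2% of 32851 promoters of the same length. CCAAT was found in 12 (32.4%, beside 33.8%) and CCGGAAG in 12 (32.4%, beside 6.91%). The units differ: a member counts if any of its promoters matches (40 promoters for the 37), and the shares beside count single promoters. The motifs were chosen with the expression values known, and a match is a description of letters, not a bound site.

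Library totals ran from 72.0 to 99.4 M counts (M, mega) in 82Q_M120A, 70.6 to 96.5 M in 82Q and 38.3 to 83.0 M in WT. Atxn1 stood at 50.6 to 55.8 CPM in 82Q_M120A, 54.1 to 58.6 in 82Q and 46.4 to 62.2 in WT. These Atxn1 values do not separate alleles. The sources used here do not say if transcripts of Atxn1[82Q] entered them at all. Prkaca stood at 138 to 150 CPM in 82Q_M120A, 158 to 173 in 82Q and 164 to 173 in WT. Summed over 8 Purkinje cell markers, the level was 3712 to 4998 CPM in 82Q_M120A, 3732 to 4621 in 82Q and 9827 to 11280 in WT, and all 8 markers fell in each comparison with WT. Summed over 12 microglia markers it was 245 to 299 CPM in 82Q_M120A, 258 to 281 in 82Q and 159 to 177 in WT. The oligodendrocyte sum (8 markers) was 6886 to 7510 CPM in 82Q_M120A, 6110 to 7402 in 82Q and 4972 to 5996 in WT. Choroid plexus markers varied within every group, with sums of 23.0 to 2072 CPM in 82Q_M120A, 43.1 to 2811 in 82Q and 37.7 to 2617 in WT. In bulk tissue, fewer cells of a type and less RNA per cell cannot be told apart, and the part of any of these differences in the proteasome values below was not tested.

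All 44 genes were well above the limit of 1 CPM. CPM here are scaled with TMM factors, which set most genes level between libraries. Mean levels over all libraries ran from 4.72 CPM for Psmg4, a core assembly chaperone, to 247 CPM for Psmd2, the large scaffold subunit of the cap. Per kilobase of exon, Psmc5, a cap ATPase, was the most abundant at 121 CPM per kb. Next came Psmc1 at 71.2, the alpha subunit gene Psma6 at 70.1, the beta subunit gene Psmb4 at 64.5 and Psmd2 at 61.1 CPM per kb. The lowest were Psmd9 at 3.41, Psmg3 at 3.91 and Psmf1 at 4.97 CPM per kb. This order depends on the length used. Per kilobase of the longest transcript, Psmc5 stayed highest at 121, followed by Psmb4 at 106 and Psmb6 at 101. By that length Psmg3 was lowest at 4.71, Psmf1 stood at 8.40 and Psmd9 at 9.37. The highest coefficient of variation within a group was 1.22% in Psmc2, the steadiest member, 11.1% in Psmg4 and 23.2% in Psmb5, the most variable.

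Summed per length over all 44 genes, the level was 1307 ± 20.3 CPM per kb in 82Q_M120A, 1318 ± 18.7 in 82Q and 1347 ± 24.9 in WT (SD, n = 5 each). The ranges overlapped, at 1287 to 1340 in 82Q_M120A, 1299 to 1340 in 82Q and 1318 to 1386 in WT. The log2 ratios of these sums were -0.043 for 82Q_M120A and -0.032 for 82Q, each against WT, and -0.011 between 82Q_M120A and 82Q. Scaled by library size alone, the ratios to WT were 0.018 for 82Q and 0.006 for 82Q_M120A, so the sign of the small difference from WT rests on the scaling. The 7 standard beta genes together stood at 282.9 ± 10.6 CPM per kb in 82Q_M120A, 282.8 ± 9.24 in 82Q and 294.4 ± 8.37 in WT. The 4 core assembly chaperones stood at 31.5 ± 1.96 CPM per kb in 82Q_M120A, 32.7 ± 1.20 in 82Q and 35.0 ± 0.925 in WT. Their lowest WT library, at 34.17, lay above the highest of 82Q_M120A (33.95) and of 82Q (33.8). Of these sums, Psmg2 alone made up 9.92 CPM per kb in 82Q_M120A, 10.75 in 82Q and 12.21 in WT.

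**Figure D1:**
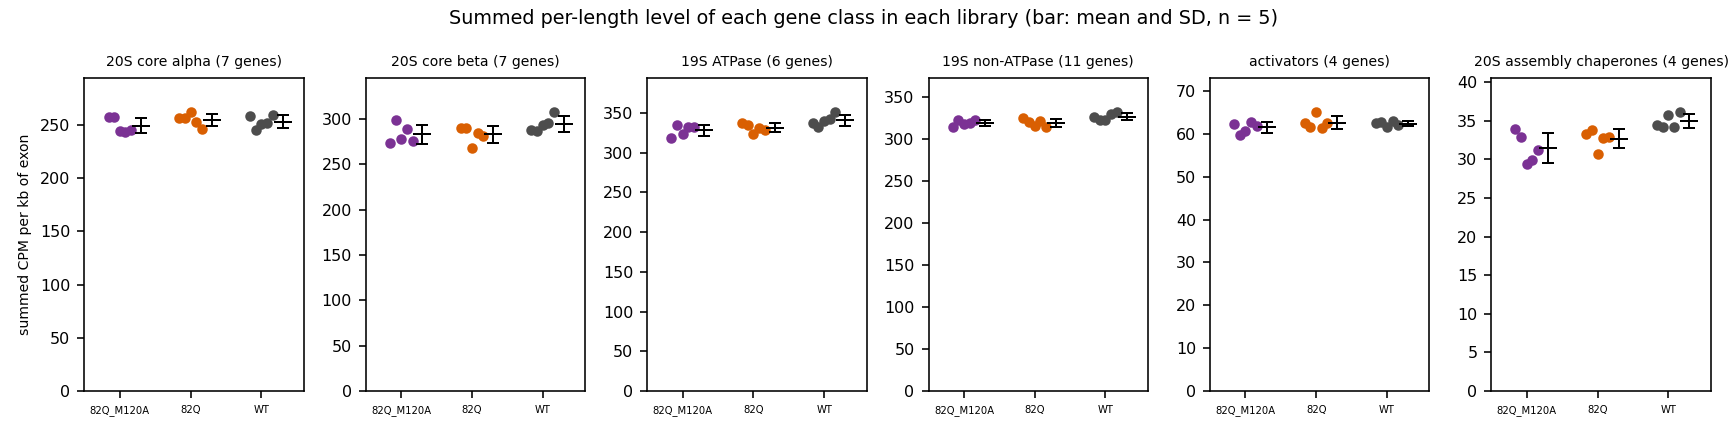
Summed per-length level (CPM per kb of exon, axis from 0) of 6 gene classes in each of the 15 libraries, with the mean and SD of 5 libraries per group. The core assembly chaperones averaged 31.5 in 82Q_M120A, 32.7 in 82Q and 35.0 in WT, with every WT library above all others. In the other classes each group with Atxn1[82Q] overlapped with WT.

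Against this background, few members changed and the changes were small. In 82Q against WT, 0 members rose and 2 fell (Psmd8 and Psmg2), that is 4.55% of 44 beside 18.7% of all tested genes (8.63% higher and 10.1% lower; edgeR quasi-likelihood test, adjusted p under 0.05 over all genes). At an unadjusted p under 0.05, 0 members were higher and 9 lower, and DESeq2 called 0 higher and 5 lower. The further 3 were the cap ATPase genes Psmc1 and Psmc3 and the cap assembly chaperone gene Psmd10. Scaling by library size alone gave 4 higher and 0 lower (edgeR). In 82Q_M120A against WT, 1 rose and 7 fell (18.2%, beside 36.4% of all tested genes, 18.6% higher and 17.8% lower). Under library size alone that split was 5 higher (Psma3, Psmd12, Psmd5, Psmd9 and Psmf1) and 2 lower (Psmb7 and Psmg2). In 82Q_M120A against 82Q, 1 rose and 1 fell (4.55%, beside 18.9%, of which 10.3% higher and 8.63% lower). Each share was below that of all genes. The comparisons share groups, and the same 5 WT libraries stand in those of 82Q_M120A and 82Q with WT.

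The absolute log2 fold change of the members had a median of 0.046 for 82Q_M120A and 0.036 for 82Q, each set against WT, and of 0.032 for 82Q_M120A set against 82Q. Among the 11090 tested genes with mean levels in the members' range of 4.72 to 247 CPM, the same medians were 0.096, 0.070 and 0.068, and 39.1%, 21.1% and 20.2% of those genes were called. The signed medians were -0.03, -0.03 and -0.02 in the members, and 0.01, 0.01 and 0.00 over all tested genes. With library size alone as the scaling, the median of all genes shifted by 0.05 in both comparisons with WT. The members' medians became 0.02 and 0.02, so the direction of these medians flipped. For 82Q against WT, the members' median stayed below 0 with RLE factors (-0.028), DESeq2 (-0.029) and limma-voom (-0.028). In each of the 3 comparisons, the 95% intervals of 43 of 44 members lay within a 1.25-fold change either way. The exception was Psmb5 in both comparisons with 82Q, and Psmg2 in 82Q_M120A against WT.

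**Figure D2:**
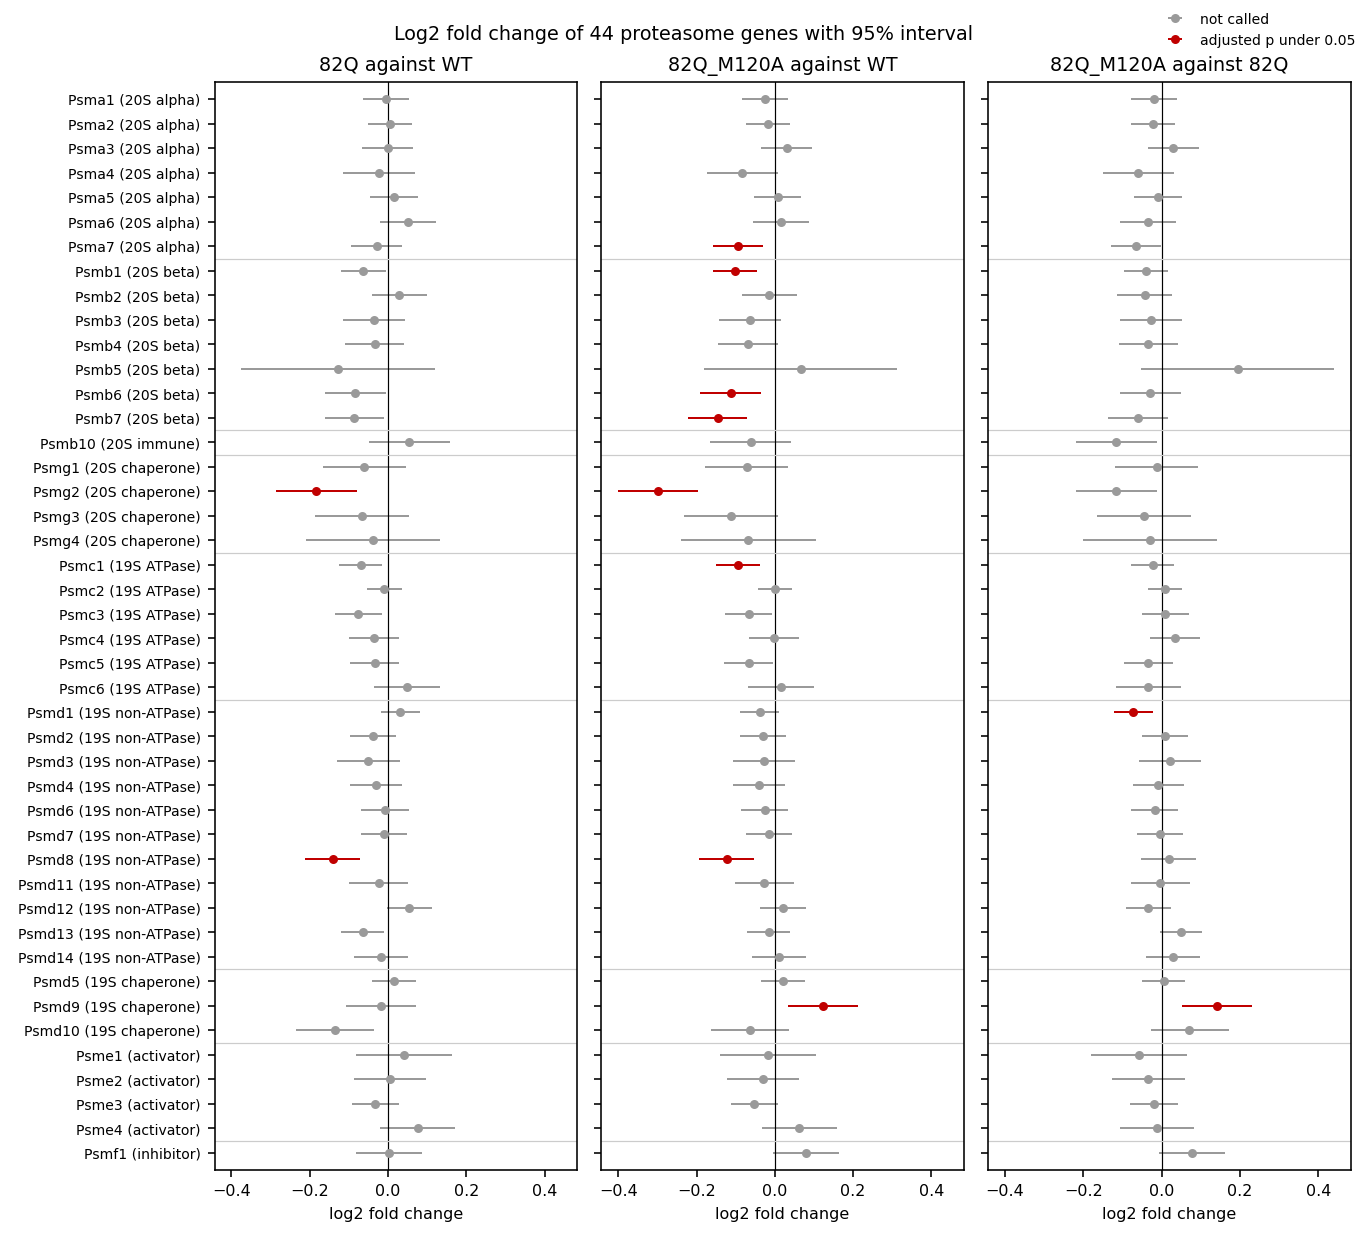
Log2 fold change with 95% interval (horizontal axis) of each of the 44 genes (rows, by role) in the 3 comparisons, with red points at adjusted p under 0.05. Most points lie within 0.1 of 0, and Psmg2 at -0.30 in 82Q_M120A against WT is farthest from it.

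Among the core assembly chaperones, Psmg2 (chr18:67641599-67654162, plus strand, mm10), which pairs with Psmg1 to build the alpha ring, fell in both groups with Atxn1[82Q]. It stood at 18.4, 18.1, 15.5, 16.4 and 17.8 CPM in 82Q_M120A, at 19.4, 18.7, 18.2, 18.1 and 19.1 CPM in 82Q, and at 21.2, 20.02, 22.3, 20.8 and 21.8 CPM in WT. Every library of the groups with Atxn1[82Q] lay below every WT library. Its log2 fold change was -0.30 ± 0.05 (SE) for 82Q_M120A against WT (adjusted p = 0.000116, edgeR) and -0.18 ± 0.05 for 82Q against WT (adjusted p = 0.0129, edgeR). Between 82Q_M120A and 82Q it was -0.12 and was not called. The call for 82Q_M120A held in all 24 alternatives, and that for 82Q was lost with library size alone (adjusted p = 0.0538, edgeR). Psmg1, Psmg3 and Psmg4 were not called in any comparison.

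The gene beside Psmg2, Cep76 (chr18:67617800-67641336, minus strand), starts 263 bases away in the opposite direction. It encodes a centrosomal protein and was looked up after the Psmg2 values were seen. Cep76 stood at 64.0 ± 8.80 CPM in 82Q_M120A, 59.8 ± 4.78 in 82Q and 196 ± 9.07 in WT (SD, n = 5 each). It fell by 1.61 on the log2 scale in 82Q_M120A against WT (adjusted p = 5.905e-10, edgeR) and by 1.71 in 82Q against WT (adjusted p = 3.718e-10, edgeR). The exons of the pair do not overlap. Spire1, 98.4 kb from Psmg2, also fell in 82Q against WT (log2 fold change -0.29, adjusted p = 3.21e-06, edgeR). The remaining neighbours looked at were not called in that comparison.

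Among the catalytic subunits, Psmb7 and Psmb6 fell in 82Q_M120A against WT and Psmb5 was not called in any comparison when all 15 libraries were fitted together (edgeR). With only the libraries of 82Q and WT in the fit, Psmb5 was called lower in 82Q (log2 fold change -0.13, adjusted p = 0.0397, edgeR), as was Psmb7 (-0.09, adjusted p = 0.0417). Psmb7 (chr2:38588036-38644087), which cuts after basic residues, stood at 120.2, 116.1, 115.3, 104.9 and 109.3 CPM in 82Q_M120A, 118.6, 120.7, 121.1, 118.1 and 111.3 CPM in 82Q, and 127.3, 120.2, 125.2, 124.3 and 129.3 CPM in WT. The lowest WT library met the highest 82Q_M120A library. The log2 fold change of Psmb7 was -0.15 ± 0.04 for 82Q_M120A against WT (adjusted p = 0.00416, edgeR), called in all 24 alternatives. Reads of Psmb7 share 11.8% of its exon length with Nek6 on the opposite strand, and whether counting used strand remains not given in the sources used here.

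Psmb6 (chr11:70525367-70527858), which cuts after acidic residues, stood at 91.3, 101.9, 95.2, 89.9 and 94.4 CPM in 82Q_M120A, against 101.2, 100.04, 99.6, 104.5 and 105.8 CPM in WT. One library, 82Q_M120A-2, lay within the WT range. In log2 terms the change was -0.11 ± 0.04 (adjusted p = 0.0242, edgeR), and the call was lost without WT-5 (adjusted p = 0.0501), 82Q_M120A-1 (0.0552) or 82Q_M120A-4 (0.0663). Psmb6 averaged 96.5 ± 4.26 CPM in 82Q.

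Psmb5 (chr14:54614119-54618022, minus strand), which cuts after hydrophobic residues and is the main target of proteasome inhibitor drugs, stood at 36.1, 52.1, 38.8, 59.2 and 37.2 CPM in 82Q_M120A-1 to -5. It stood at 39.7, 40.4, 36.1, 38.9 and 40.0 CPM in 82Q and at 39.4, 41.9, 43.9, 43.2 and 45.0 CPM in WT. Libraries 82Q_M120A-2 and 82Q_M120A-4 lay above every other library, and the other 3 of that group lay below all WT libraries. These 2 libraries were also the shallower ones of their group, at 73.2 and 72.0 M counts beside 95.7 to 99.4 M. The log2 fold change of 82Q_M120A against 82Q was 0.19 ± 0.12 with a 95% interval of -0.05 to 0.44 (adjusted p = 0.273, edgeR), and 0.07 without 82Q_M120A-4.

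The tested neighbours of Psmb5 were looked at after this split was seen. Acin1, 48.5 kb away, stood at 172 and 184 CPM in 82Q_M120A-2 and -4, beside 152, 165 and 162 CPM in -1, -3 and -5. The transcript 4930579G18Rik, 36.5 kb away, stood at 9.65 and 12.2 CPM in the same 2 libraries, beside 7.61, 8.28 and 8.79 CPM. In no other neighbour looked at did both libraries lie above the rest of the group. Prmt5 stood at 63.8 and 67.1 CPM in them, beside 59.1, 60.6 and 64.0 CPM. Cdh24, 20.2 kb away, stood at 5.7 and 5.2 CPM, beside 6.9, 7.5 and 5.6 CPM. Haus4 was lower in both, at 7.1 and 6.3 CPM, beside 7.2, 8.6 and 7.6 CPM. The 82Q_M120A group alone is of mixed strain, and the part of strain or of depth in the Psmb5 split was not tested.

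**Figure D3:**
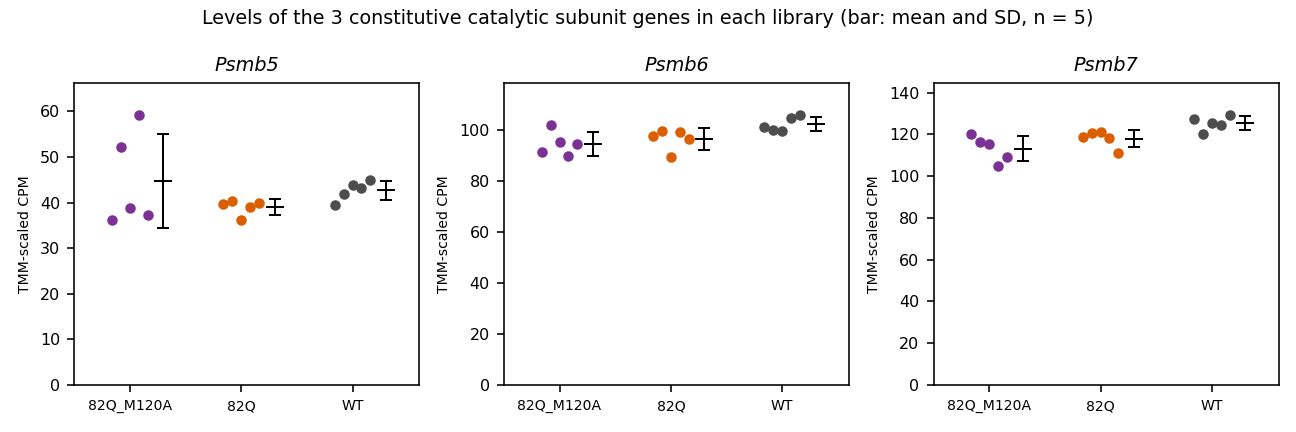
TMM-scaled CPM (axis from 0) of the 3 constitutive catalytic subunit genes in each library, with the mean and SD of 5 libraries per group. Psmb5 splits within 82Q_M120A, with 2 libraries at 52.1 and 59.2 CPM and 3 between 36.1 and 38.8 CPM.

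Of the other core genes, Psmb1 and Psma7 fell in 82Q_M120A against WT. Psmb1 (chr17:15475021-15499751), a structural beta subunit, stood at 94.5, 96.3, 90.1, 88.9 and 91.9 CPM in 82Q_M120A, against 99.1, 96.7, 99.2, 99.1 and 101.4 CPM in WT, without overlap. Its log2 fold change was -0.10 ± 0.03 (adjusted p = 0.00649, edgeR). Psma7 (chr2:180036374-180042433), an alpha ring subunit, stood at 99.7, 100.7, 105.3, 95.8 and 97.3 CPM in 82Q_M120A, against 107.4, 102.3, 106.5, 106.5 and 110.4 CPM in WT. The ranges overlapped through 82Q_M120A-3, and the log2 fold change was -0.10 ± 0.03 (adjusted p = 0.0212, edgeR), lost without 82Q_M120A-4 (adjusted p = 0.059). In all, 4 of 15 core genes fell in 82Q_M120A against WT and 11 were not called. Over all tested genes, 36.4% were called in this comparison, 18.6% higher and 17.8% lower. With library size alone, Psmb1, Psma7 and Psmb6 were not called (adjusted p = 0.12, 0.248 and 0.17, edgeR) and the core gene Psma3 was called higher.

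In the cap, Psmd8 fell in both comparisons with WT and Psmc1 in that of 82Q_M120A. Psmd8 (chr7:29174188-29180701), a lid subunit, stood at 116.7, 112.5, 113.2, 104.8 and 109.7 CPM in 82Q_M120A, at 111.1, 114.6, 105.8, 112.3 and 106.4 CPM in 82Q, and at 120.7, 118.3, 118.2, 121.6 and 128.1 CPM in WT. All libraries of both groups with Atxn1[82Q] lay below all WT libraries. On the log2 scale the difference was -0.12 ± 0.03 for 82Q_M120A against WT (adjusted p = 0.00787, edgeR) and -0.14 ± 0.03 for 82Q against WT (adjusted p = 0.00596, edgeR). With library size alone neither was called (adjusted p = 0.0973 for 82Q_M120A and 0.0621 for 82Q, edgeR).

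Psmc1 (chr12:100110154-100123405), an ATPase of the ring, stood at 130.0, 131.9, 130.0, 136.9 and 140.6 CPM in 82Q_M120A, 138.8, 138.0, 134.4, 135.5 and 133.6 CPM in 82Q, and 141.0, 141.6, 142.9, 143.7 and 145.0 CPM in WT. Every WT library was above every other library. Its log2 fold change was -0.09 ± 0.03 for 82Q_M120A against WT (adjusted p = 0.00985, edgeR), not called with library size alone (adjusted p = 0.155, edgeR). The 5 other ATPase genes were not called by edgeR with all libraries, while DESeq2 called Psmc3 lower in both comparisons with WT and Psmc5 lower in 82Q_M120A against WT.

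**Figure D4:**
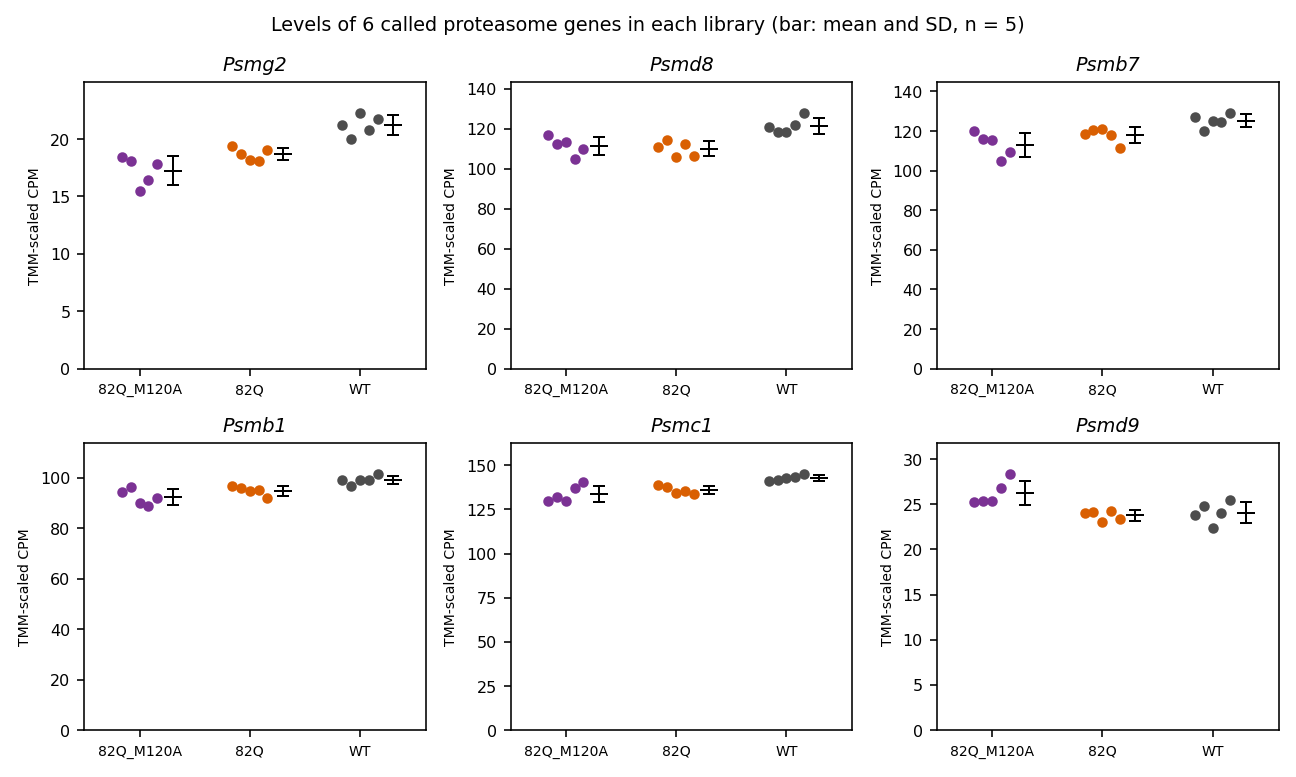
TMM-scaled CPM (axis from 0) of 6 called genes in each library, with the mean and SD of 5 libraries per group. In Psmg2, Psmd8 and Psmc1 all 10 libraries with Atxn1[82Q] lie below the 5 WT libraries, and in Psmd9 all 5 of 82Q_M120A lie above the 5 of 82Q.

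Between the groups with Atxn1[82Q], Psmd9 rose and Psmd1 fell in 82Q_M120A. Psmd9 (chr5:123169413-123250131), a chaperone of the cap's ATPase ring, stood at 25.3, 25.4, 25.3, 26.7 and 28.3 CPM in 82Q_M120A, 24.0, 24.2, 23.0, 24.3 and 23.3 CPM in 82Q, and 23.8, 24.8, 22.3, 24.0 and 25.4 CPM in WT. The 82Q_M120A libraries lay above all 82Q libraries, and overlapped with WT through WT-5. In log2 terms the change was 0.14 ± 0.04 against 82Q (adjusted p = 0.0252, edgeR) and 0.12 ± 0.04 against WT (adjusted p = 0.0297, edgeR). Both calls were lost with the choroid plexus score as a covariate (adjusted p = 0.0542 and 0.115, edgeR), without 82Q_M120A-4 (0.0516 and 0.0603) and without 82Q_M120A-5 (0.0719 and 0.0892). The call against 82Q was also lost without 82Q-3 (0.0524) or 82Q-5 (0.055), and that against WT without WT-1 (0.0604), WT-3 (0.0957) or WT-4 (0.0542). A further annotated gene, Gm26745, overlaps 25.5% of the exon length of Psmd9. The promoter window shown for Psmd9 (chr5:123227940-123228189) lies inside the interval given here, so its RefSeq start is not the start of that interval.

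Psmd1 (chr1:86064387-86139151), the other large scaffold subunit of the cap, stood at 129.4, 132.2, 132.8, 132.2 and 135.4 CPM in 82Q_M120A, 143.9, 141.4, 137.5, 135.8 and 137.1 CPM in 82Q, and 137.8, 135.2, 137.2, 134.1 and 135.8 CPM in WT. The 82Q_M120A and 82Q libraries did not overlap. On the log2 scale the difference was -0.07 ± 0.02 (adjusted p = 0.0433, edgeR). The call was lost in 12 of 24 alternatives, counting the stricter threshold of 0.01, with adjusted p up to 0.122.

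Counted by ranges alone, 3 members did not overlap between 82Q and WT (Psmc1, Psmd8 and Psmg2, all lower), or 6.82% beside 16.6% of all tested genes (6.81% higher and 9.79% lower). Between 82Q_M120A and WT there were 5 (Psmb1, Psmb3, Psmc1, Psmd8 and Psmg2, all lower), or 11.36% beside 25.3% (12.4% higher and 12.9% lower). Between 82Q_M120A and 82Q there were 2 (Psmd1 lower and Psmd9 higher), or 4.55% beside 12.1% (6.63% higher and 5.5% lower).

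Among the subunits that interferon induces, Psmb10, Psme1 and Psme2 were not called by edgeR with all libraries in any comparison, while all 12 microglia markers rose in 82Q against WT and 10 rose and 1 fell in 82Q_M120A against WT. Psmb10 (chr8:105935735-105938444), which replaces the Psmb7 product in the immunoproteasome, averaged 18.5 ± 0.894 CPM in 82Q_M120A, 20.02 ± 1.11 in 82Q and 19.3 ± 1.04 in WT (SD, n = 5 each). Its log2 fold change was 0.05 for 82Q against WT (adjusted p = 0.497, edgeR) and -0.06 for 82Q_M120A against WT (adjusted p = 0.348, edgeR). For 82Q_M120A against 82Q it was -0.12 with a 95% interval of -0.22 to -0.01 (adjusted p = 0.109, edgeR), and without 82Q-3 it was -0.15 and called (adjusted p = 0.0443, edgeR). Per length, Psmb10 made up 24.7 ± 1.06% of the Psmb7 and Psmb10 total in 82Q_M120A, 25.4 ± 1.21% in 82Q and 23.6 ± 0.776% in WT.

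Psmb8 and Psmb9, which replace the Psmb5 and Psmb6 products, lie outside the set and were scarce. Psmb8 stood at 2.86, 2.03, 2.21, 3.36 and 2.37 CPM in 82Q_M120A, 2.004, 2.39, 2.33, 2.24 and 1.90 CPM in 82Q, and 1.76, 1.95, 1.31, 1.85 and 2.11 CPM in WT. The 82Q_M120A and WT ranges overlapped through 82Q_M120A-2 and WT-5, and the log2 fold change of 0.52 ± 0.14 passed the test (adjusted p = 0.00846, edgeR). Per length, Psmb8 was 1.55 ± 0.374% of the Psmb5 and Psmb8 total in 82Q_M120A, 1.46 ± 0.175% in 82Q and 1.11 ± 0.184% in WT. Psmb9 averaged 1.25 CPM in 82Q_M120A, 0.999 in 82Q and 1.01 in WT and was not called for 82Q_M120A against WT (adjusted p = 0.0824, edgeR), though it was called higher without WT-5 (adjusted p = 0.0303) and with library size alone (adjusted p = 0.0453). The summed level of 8 interferon response genes was 80.3 to 128.5 CPM in 82Q_M120A, 71.9 to 90.0 in 82Q and 63.0 to 81.2 in WT, and its part in the Psmb8 values was not tested.

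Psme1 and Psme2 (chr14:55578123-55581529 and chr14:55587441-55591113) encode the interferon-induced activator ring. Psme1 averaged 18.7 ± 1.65 CPM in 82Q_M120A, 19.5 ± 1.11 in 82Q and 18.9 ± 0.963 in WT, and Psme2 averaged 16.9 ± 0.913 in 82Q_M120A, 17.3 ± 0.491 in 82Q and 17.3 ± 0.723 in WT. Psme3, the nuclear activator, averaged 91.6 ± 3.26 CPM in 82Q_M120A, 92.9 ± 2.73 in 82Q and 94.95 ± 1.59 in WT. Psme4, a large activator of the nuclear core, averaged 104 ± 5.06 CPM in 82Q_M120A, 105 ± 6.42 in 82Q and 99.6 ± 5.20 in WT. Psmf1, an inhibitor of the core in vitro, stood at 32.3 to 33.8 CPM in 82Q_M120A, 29.8 to 34.1 in 82Q and 30.1 to 33.1 in WT. None of these 5 genes was called in any comparison by edgeR, and none reached an unadjusted p under 0.05 or was called by DESeq2 or limma-voom. With library size alone, Psme4 was called higher in 82Q against WT (adjusted p = 0.0458) and Psmf1 in 82Q_M120A against WT (adjusted p = 0.0156).

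**Figure D5:**
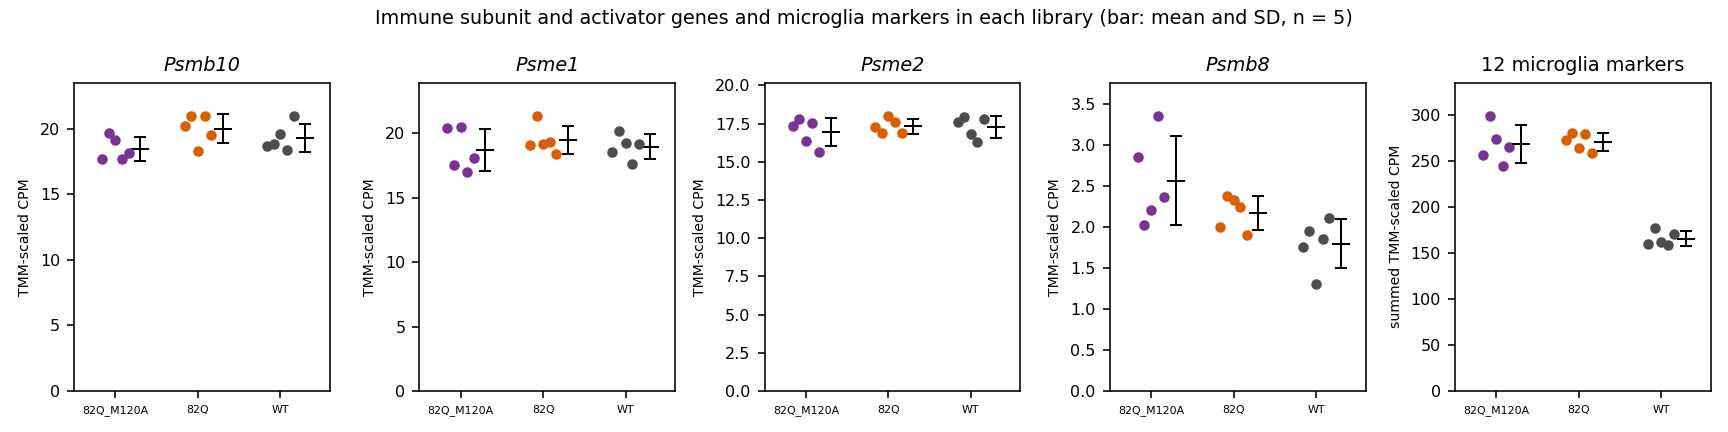
TMM-scaled CPM (axis from 0) of Psmb10, Psme1, Psme2 and Psmb8 in each library, and the summed CPM of 12 microglia markers, with the mean and SD of 5 libraries per group. The microglia sum lies at 245 to 299 in 82Q_M120A, 258 to 281 in 82Q and 159 to 177 in WT, while Psmb10, Psme1 and Psme2 overlap among the groups.

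Beyond the subunits, 44 tested genes of a list of ubiquitin and proteasome-associated genes were counted. In 82Q against WT, 2 rose and 7 fell (20.5%, beside 18.7% of all tested genes). In 82Q_M120A against WT, 7 rose and 10 fell (38.6%, beside 36.4%), and in 82Q_M120A against 82Q, 3 rose and 4 fell (15.9%, beside 18.9%). These shares were near those of all genes. Scaling by library size alone gave 7 higher and 1 lower in 82Q against WT, and 11 higher and 6 lower in 82Q_M120A against WT (edgeR). The medians of the log2 fold change were -0.01, -0.02 and 0.01, and with library size alone 0.04, 0.03 and 0.01.

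Uchl1, an abundant neuronal deubiquitinase, rose to 120 ± 6.38 CPM in 82Q_M120A and 117 ± 9.88 in 82Q, against 94.5 ± 6.19 in WT, a log2 fold change of 0.35 ± 0.06 (adjusted p = 0.000147, edgeR) and 0.30 ± 0.06 (adjusted p = 0.001065, edgeR). The 82Q_M120A and WT ranges of Uchl1 did not overlap, and those of 82Q and WT overlapped through 82Q-3. Nfe2l1 averaged 266 ± 16.3 CPM in 82Q_M120A, 261 ± 7.94 in 82Q and 287 ± 11.0 in WT, with log2 fold changes of -0.11 ± 0.04 (adjusted p = 0.03541, edgeR) for 82Q_M120A and -0.14 ± 0.04 (adjusted p = 0.01864, edgeR) for 82Q. The Nfe2l1 calls were lost with library size alone (adjusted p = 0.208 for 82Q_M120A and 0.0988 for 82Q, edgeR), and that for 82Q_M120A also without WT-2, WT-3, WT-5 or 82Q_M120A-1, -2 or -3 (0.0628 to 0.0844) and with the choroid plexus covariate (0.122).

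Mafg, a small partner of the Nfe2l1 product on DNA, averaged 29.8 CPM in 82Q_M120A, 37.97 in 82Q and 36.97 in WT, with a log2 fold change of -0.31 against WT (adjusted p = 0.000285, edgeR) and -0.35 against 82Q (adjusted p = 0.00025, edgeR). Shfm1, which encodes the small cap subunit SEM1, averaged 42.3 CPM in 82Q_M120A, 44.9 in 82Q and 48.6 in WT. It fell by 0.20 in 82Q_M120A against WT (adjusted p = 0.000247, edgeR) and by 0.11 in 82Q against WT (adjusted p = 0.03277, edgeR). Pomp, a chaperone of core maturation, averaged 69.2 CPM in 82Q_M120A, 71.2 in 82Q and 74.8 in WT, and fell by 0.11 in 82Q_M120A against WT (adjusted p = 0.004662, edgeR). Its log2 fold change of -0.07 for 82Q against WT was not called (adjusted p = 0.0917, edgeR).

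The ubiquitin ligase genes Stub1 and Ube3b fell in both comparisons with WT. Stub1 changed by -0.15 in 82Q_M120A (adjusted p = 0.001802, edgeR) and -0.13 in 82Q (adjusted p = 0.009859, edgeR), and Ube3b by -0.14 (adjusted p = 0.001219, edgeR) and -0.15 (adjusted p = 0.001289, edgeR). Akirin2, whose product carries proteasomes into the nucleus, rose in 82Q_M120A by 0.18 against WT (adjusted p = 0.002079, edgeR) and by 0.15 against 82Q (adjusted p = 0.01363, edgeR). Zfand5, which encodes a proteasome-activating zinc finger protein, rose by 0.21 against WT (adjusted p = 0.000519, edgeR) and by 0.12 against 82Q (adjusted p = 0.04121, edgeR), a call against 82Q that was lost with any 1 of 10 libraries left out (adjusted p up to 0.112, edgeR). With library size alone, Stub1 in 82Q (adjusted p = 0.0861) and Pomp in 82Q_M120A (adjusted p = 0.0772) were not called against WT.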

How the data were processed

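RNA from mouse cerebellum was sequenced. The deposited values are whole-number counts of reads per gene symbol in 15 columns, not normalized, and per the submitters' processing notes the tools were CASAVA 1.8, HISAT2 2.0.1, featureCounts, Subread, R 3.3.3 and DESeq2 1.14.1 with build mm10. The strand setting, annotation and handling of multiply mapped reads remain not given in the sources used here, and pseudogene copies annotated for Psmb5, Psmb6 and Psmb7 could share their reads. Column names show an identifier, the group and the age but no number of a replicate, so a library's number is its place among that group's columns.

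An edgeR 4.0.16 quasi-likelihood fit (limma 3.58.1, R 4.3.3, robust, TMM factors, filterByExpr) over 16808 genes and all 15 libraries, with no factor but group, gave two-sided p-values adjusted by Benjamini-Hochberg over all tested genes, called under 0.05. An approximate SE was taken as the size of the log2 fold change over the root of the F statistic. CPM are scaled with TMM factors, and per-length levels divide them by the summed length of a gene's exons (GENCODE M21, mm10). The common biological coefficient of variation was 0.105. The procedure was tested on simulated data for 82Q against WT, with changes given to genes drawn from all those of at least 1 CPM. Of genes with a true log2 change of -0.2, 22.4% were called, and 34% of those with 0.2. At -1 and 1 the shares were 97.9% and 98.2%. The members' own biological coefficients of variation ran from 0.0296 in Psmc2 to 0.1285 in Psmb5, so these shares need not hold for them. Changes as small as those of most members were not simulated, so how often such changes are missed was not tested. Alternatives were library size alone, RLE factors, limma-voom, DESeq2 1.42.0, no filter, a filter at a mean of 1 CPM, only the groups compared, an adjusted p under 0.01, a choroid plexus covariate and leaving out each library.

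The members, lists and motifs were chosen with earlier results of these data known. Named genes are the called members with the smallest adjusted p (up to 8 per direction), the catalytic genes with Psmb10, the activators, Psmf1, members under the limit, and, of the ubiquitin list, some of the called genes with the smallest adjusted p (up to 4 per direction) with Nfe2l1, Pomp, Psmb8 and Psmb9. Cep76, Spire1, Acin1, 4930579G18Rik, Prmt5, Cdh24 and Haus4 were added after values were seen. A result of the ubiquitin list is not reported here.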

Additional observations from a re-analysis of the deposited data

Results flagged for a closer look

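Psme4 stood at 109 CPM in WT-4, apart from the 4 other WT libraries at 96.2 to 97.7 CPM. The gap was 0.886 of the group's whole range, beside a critical value of 0.71 for 5 samples. Of 96 groups of 5 values examined this was the only one past that value, and chance alone passes about 5% of groups.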

How the results depend on the processing

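The number of proteasome genes called was small and moved with the settings. In 82Q against WT it was 2, against 5 with DESeq2, 4 with library size alone (all higher), 6 with only the groups compared, 1 at an adjusted p under 0.01, and 2 to 3 with a library left out. In 82Q_M120A against WT it was 8 (1 higher and 7 lower), against 10 with DESeq2 (1 higher and 9 lower), 7 with library size alone (5 higher and 2 lower), 5 at an adjusted p under 0.01 and 5 to 10 with a library left out, 5 being without 82Q_M120A-4. In 82Q_M120A against 82Q it was 2, against 1 with limma-voom, 1 with only the groups compared, 0 with the choroid plexus covariate (edgeR) and 0 at an adjusted p under 0.01, and 0 to 2 with a library left out, 0 being without 82Q-5 or 82Q_M120A-4. In that comparison 5 members had an unadjusted p under 0.05 and DESeq2 called 2. The ubiquitin list gave 7 higher and 1 lower in 82Q against WT and 11 higher and 6 lower in 82Q_M120A against WT with library size alone, where the main scaling gave 2 and 7, and 7 and 10. It gave 3 in 82Q against WT and 2 in 82Q_M120A against 82Q at an adjusted p under 0.01. With a library left out it gave 4 to 11 in 82Q against WT (4 without WT-4 or 82Q-5, 5 without WT-1 or WT-5), 15 to 19 in 82Q_M120A against WT and 5 to 9 in 82Q_M120A against 82Q. The summed level per length gave log2 ratios of 0.018 for 82Q against WT and 0.006 for 82Q_M120A against WT with library size alone. With a library left out these ratios were -0.039 to -0.021 for 82Q against WT, -0.052 to -0.033 for 82Q_M120A against WT and -0.021 to -0.006 for 82Q_M120A against 82Q. With library size alone, 73.0% of all called genes in 82Q against WT and 68.8% in 82Q_M120A against WT were higher. The medians over the members were added after seeing the data. The cause of these shifts was not tested. No called gene reversed its sign, and the sign of genes called in neither setting was not read. Losses of single genes in the text are at the 0.05 threshold, except that the count for Psmd1 includes the threshold of 0.01. No paired analysis was possible because the columns carry no replicate numbers. Depth leaves the scarce Psma8, Psmb11, Psmb8 and Psmb9 the least precise.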

Other observations

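Psma8 and Psmb11, the matching genes under 1 CPM, encode alternative core subunits of the testis and the thymus. Psma8 had 113 counts over the 82Q_M120A libraries, 67 over the 82Q libraries and 49 over the WT libraries, a mean of 0.255 CPM in 82Q_M120A, 0.160 in 82Q and 0.137 in WT. The 82Q_M120A libraries lay at 0.234 to 0.285 CPM and the WT libraries at 0.0697 to 0.199, and the log2 fold change was 0.84 (adjusted p = 0.037, edgeR). Psmb11 had 58 counts in 82Q_M120A, 64 in 82Q and 46 in WT.

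Nfe2l2, which encodes the stress-activated relative of the Nfe2l1 product, averaged 26.2 CPM in 82Q_M120A, 29.5 in 82Q and 26.0 in WT. It rose in 82Q against WT by 0.18 ± 0.05 on the log2 scale (adjusted p = 0.01979, edgeR) and fell in 82Q_M120A against 82Q by 0.17 (adjusted p = 0.02976, edgeR). The call for 82Q against WT was lost without WT-1 (adjusted p = 0.0532, edgeR), WT-4 (0.0619) or 82Q-5 (0.0573). That for 82Q_M120A against 82Q was lost with any 1 of 6 libraries left out (adjusted p up to 0.0847, edgeR). It was also lost with the choroid plexus covariate (adjusted p = 0.0663, edgeR). Uchl5, a deubiquitinase of the cap, fell in 82Q_M120A against 82Q by 0.19 (adjusted p = 0.01498, edgeR), and Ube4b, a chain-extending ubiquitin ligase, rose in the same comparison by 0.14 (adjusted p = 0.002499, edgeR).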
